A study of Ambystoma californiense with 99 samples.

Results

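The DNAJ genes encode the J-domain proteins, the co-chaperones of the HSP70 chaperones. A J-domain protein delivers an unfolded client to HSP70 and stimulates its ATPase, so that HSP70 closes on the client. Different members work in the cytosol, in the endoplasmic reticulum (ER), in mitochondria, on vesicles and beside the ribosome. In other vertebrates DNAJB1 (HSP40) is the classical heat-inducible member of the cytosol, and most other members are made in unstressed cells as part of normal protein folding and transport.

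The DNAJ features described here were taken by name from the deposited count tables, which list 23251 features for each of 2 tissues. Of these, 35 had a name that begins with DNAJA, DNAJB or DNAJC and a digit, in any case and without the suffixes .L and .S. A feature was kept in a tissue where its mean over the libraries was at least 1 count per 1000000 counts (CPM). This kept 30 features in leg muscle and 30 in whole brain, 29 of them in both and 31 in at least 1 tissue. In muscle the closest feature outside the limit was a second DNAJB1 feature at a mean of 0.992 CPM (0.395 CPM without the shallow library of animal 11), and dnajc3 lay just inside at 1.04 CPM. The other features left out in muscle were DNAJC6 at 0.44 CPM, DNAJC17, DNAJC22 and a second dnajb5 feature. In brain the second DNAJB1 feature was left out at 0.847 CPM and DNAJB4 at 0.554 CPM, with DNAJC17, DNAJC22 and the second dnajb5 feature, and the lowest feature inside was dnajc28.L at 2.14 CPM. All 30 kept features of each tissue passed the filter on low counts of the tests below. DNAJB1 and dnajb5 without further mention are the features AMEXTC_0340000121396 and AMEXTC_0340000238129. Names come from the tables, and reads of near-identical copies could have been split between features.

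The tables hold RNA sequencing counts from heated animals and controls of the California tiger salamander (CTS, Ambystoma californiense), the barred tiger salamander (BTS), F1 hybrids of these species and a small number of backcrosses, to BTS (BTSbc) or to CTS (CTSbc). Heated animals had met acute thermal stress that ended at loss of the righting response, when an animal on its back stayed there for 30 seconds. In muscle there were 5 heated and 5 control CTS, 6 heated and 5 control BTS, and 12 heated and 13 control F1. In brain there were 5 heated and 5 control CTS, 6 heated and 5 control BTS, and 10 heated and 13 control F1. Each of these groups held females and males, in shares that differed between groups. Sex was a term of the main fits, but the CPM values given below are not adjusted for it. The 4 backcross libraries of each tissue entered no test. Each library of a tissue came from a separate animal, so the errors below rest on variation between animals. They are standard errors (SE) of fits over all groups together, and not the spread within any single group. The temperatures, ages and rearing of the animals were not given in the sources used here.

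Muscle libraries held 1232774 to 20068304 counts, apart from that of heated F1 animal 11 with 66186. Brain libraries held 3213005 to 13506066 counts, apart from that of heated F1 animal 16 with 5418, too few to measure most genes: 3 counts there stand for 554 CPM. Animal 64, an F1, is tagged as a control in brain and as heated in muscle. Animal 76, tagged as a heated CTS, has BTS in its title. The tissues showed their own markers in every deep library: 19 skeletal muscle marker features summed to 104903 CPM or more in muscle, and 11 brain marker features to 3911 CPM or more in brain. The brain library of heated CTS animal 7 held 1675 CPM of the muscle markers, against at most 276 CPM in the other deep brain libraries. The muscle library of control CTS animal 66 held 205 CPM of the brain markers, against at most 89.1 CPM in the other deep muscle libraries, and that of control CTS animal 63 held the most of the epidermis markers at 796 CPM. For some results that rest on these libraries a value without them is also given, and for others it is not.

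DNAJB1 was the member that rose after heat, in both tissues, and it was the only one of the 30 to pass the test in either. Averaged over the 3 genotypes, its level in heated animals was 6.69 times that of controls in muscle and 2.89 times in brain. No other member changed by as much: the other 29 lay between -0.52 and 0.64 on the log2 scale in muscle and between -0.31 and 0.36 in brain. The comparison asks how the family responded to acute thermal stress, the question of the study's design.

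In muscle, DNAJB1 in heated CTS stood at 13.6, 17.4, 37.1, 71.1 and 200 CPM, against 7.23, 7.52, 8.32, 8.66 and 18.7 CPM in control CTS; all CPM values from here on are scaled by the trimmed mean of M-values (TMM). In BTS it had a lowest value of 8.39, a median of 21.5 and a highest of 194 CPM in the 6 heated animals, against 5.03, 8.89, 11.0, 12.2 and 13.0 CPM in the controls. In F1 it had a lowest value of 9.15, a median of 64.0 and a highest of 179 CPM in the 12 heated animals, against a lowest of 4.75, a median of 8.84 and a highest of 17.6 CPM in the 13 controls. In every genotype some heated animals lay within the range of the controls, in CTS through control animal 66 alone on this scale. The highest control was exceeded by 9 of 12 heated F1 (8 of 10 without animals 11 and 64), by 3 of 6 heated BTS and by 3 of 5 heated CTS. Animal 66, at 18.7 CPM, gave the muscle library with the most brain markers. The next CTS control, at 8.66 CPM, lay below all 5 heated CTS. That rests on the scaling of heated CTS animal 13, whose TMM factor of 0.496 was the lowest in muscle. Without TMM scaling animal 13 stood at 6.73 CPM, below every CTS control, the lowest of which had 6.97 CPM. The highest heated F1 was animal 64, which is tagged as a control in brain. The mean log2 fold change over genotypes was 2.74 (SE 0.39, adjusted p = 2.46e-05, edgeR quasi-likelihood test with Benjamini-Hochberg adjustment over 12554 features). It was called in all 31 alternatives tried. The test called 0.757% of all muscle features (0.223% as higher), and 1 of the 30 members, DNAJB1, which was higher.

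In brain, DNAJB1 in heated CTS stood at 59.9, 62.7, 127, 156 and 562 CPM, against 53.8, 54.2, 58.8, 67.6 and 83.0 CPM in control CTS. In BTS it had a lowest value of 63.8, a median of 117 and a highest of 551 CPM in the 6 heated animals, against 60.6, 68.5, 78.1, 87.2 and 95.9 CPM in the controls. In F1 it had a median of 211 and a highest value of 551 CPM in the 10 heated animals, against a lowest of 48.4, a median of 68.4 and a highest of 329 CPM in the 13 controls. The lowest heated F1 was the shallow library of animal 16, with 0 counts, and the next was 61.8 CPM. The highest control was animal 64, which is tagged as heated in muscle, and the next was 85.8 CPM. The highest control was exceeded by 3 of 10 heated F1 (8 of 9 without animals 16 and 64), by 3 of 6 heated BTS and by 3 of 5 heated CTS. The mean log2 fold change over genotypes was 1.53 (SE 0.29, adjusted p = 0.0111, same test over 15496 features). The test called 0.0968% of all brain features (0.0774% as higher), and again 1 of the 30 members. Without the brain library of animal 7, the highest heated CTS, the adjusted p was 0.0575.

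**Figure D1:**
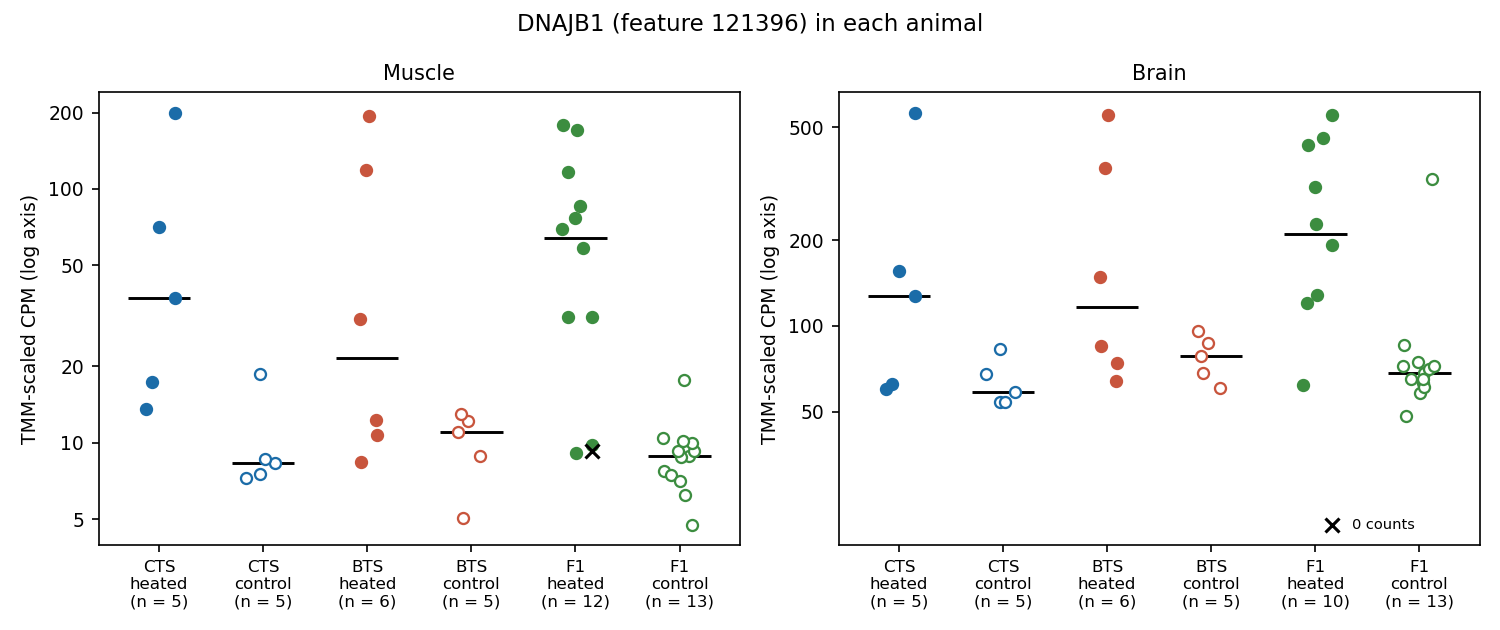
DNAJB1 in each muscle library (left) and brain library (right), in TMM-scaled CPM on a log axis; filled points are heated animals, open points controls, bars group medians and crosses the 2 shallow libraries, with the one at 0 counts drawn near the foot of the brain panel. Heated animals reach 200 CPM in muscle and 562 CPM in brain while others of the same group lie among the controls; the open point at 329 CPM in brain is animal 64.

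Within single genotypes the DNAJB1 response was of like size, with wide errors. In muscle its log2 fold change was 2.95 in F1 (SE 0.47, adjusted p = 0.00037, edgeR), 2.72 in BTS (SE 0.72, adjusted p = 0.34) and 2.56 in CTS (SE 0.76, adjusted p = 0.0904). DESeq2 called it in all 3, with adjusted p = 0.0348 in CTS and 0.0492 in BTS. In brain it was 1.71 in F1 (SE 0.38, adjusted p = 0.0804), 1.59 in BTS (SE 0.56, adjusted p = 0.769) and 1.30 in CTS (SE 0.59, adjusted p = 1), none of them called by edgeR. The F1 brain response was called without animal 64 (log2 fold change 2.01, adjusted p = 0.0024), and by DESeq2 (adjusted p = 0.0353). Within genotypes, edgeR called 0.39% of all muscle features in CTS, 0.0159% in BTS and 0.119% in F1, and 0%, 0% and 0.0516% of all brain features in the same order.

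The size of the DNAJB1 response did not differ detectably between genotypes. In muscle, the response of F1 minus that of CTS was 0.38 on the log2 scale (approximate 95% interval -1.25 to 2.02), that of F1 minus BTS 0.23 (-1.37 to 1.83) and that of BTS minus CTS 0.15 (-1.82 to 2.13). In brain, F1 minus CTS was 0.41 (-0.96 to 1.79), F1 minus BTS 0.12 (-1.16 to 1.4) and BTS minus CTS 0.29 (-1.30 to 1.88). These intervals are wide, and each reaches more than 2-fold upward. For each of these 6 differences, 0 of the 30 members were called by edgeR, where 0.135% (F1 minus CTS), 0.0159% (F1 minus BTS) and 0.0398% (BTS minus CTS) of all muscle features were called and 0% of brain features in each. Between tissues, the DNAJB1 response in muscle minus that in brain was 1.18 (approximate 95% interval 0.27 to 2.08, unadjusted p = 0.0127, adjusted p = 0.43 in the edgeR fit of both tissues), which does not pass the test. None of the 31 members passed it, and the same test called 0.221% of 16288 features. An unadjusted p under 0.05 was found for 6 of the 31 members and for 1281 of the 16288 features. That fit took the 2 libraries of an animal as independent, so the interval makes no use of the pairing of tissues. With the animal as a block, none of the 31 members was called either. That blocked fit kept the shallow libraries, so it does not show that the responses of the tissues were alike.

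Animals of the same heated group differed far more in DNAJB1 than control animals did. The SD between animals within a group, on the log2 scale, was 1.60 among heated animals and 0.48 among controls in muscle, a ratio of 3.30. In brain it was 1.19 among heated animals and 0.23 among controls, a ratio of 5.13. DNAJB1 ranked first of 30 by this ratio in each tissue, and the other 29 members had ratios of at most 1.83 in muscle and 1.52 in brain. These spreads leave out the shallow libraries and animal 64. The SEs and intervals of DNAJB1 come from fits over heated and control animals together, so they do not separate the 2 spreads.

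The animals that were high in one tissue were high in the other. Over the 19 heated animals with a deep library of both tissues, log2 levels of DNAJB1 in brain and muscle had a Pearson r of 0.96 and a Spearman rho of 0.93 (both p = 2e-05, permutation test, two-sided, the smallest value it could give, and 0.00012 adjusted over 6 relations). Without animals 7 and 38, the farthest from the median in brain, r was 0.95. The relation held within the 8 heated F1 (r = 0.97, permutation p = 0.000397, adjusted 0.000794; rho = 0.95, p = 0.00114). Within the 6 heated BTS r was 0.98 (exact permutation p = 0.0167, adjusted 0.025) and rho 0.77 (p = 0.103). For the 5 heated CTS, fewer than the 6 animals required here for a correlation, none is given; animals 13, 76, 14, 4 and 7 stood in that order, low to high, in both tissues. With the shallow libraries of animals 11 and 16 included, r over 21 heated animals was 0.60 and rho 0.73. Among 21 control animals r was 0.48 (permutation p = 0.0281, adjusted 0.0337) and rho 0.57, and within the 12 control F1 r was 0.27 (permutation p = 0.394). Heated animals at the level of the controls and heated animals far above them occurred in all 3 genotypes. In CTS muscle, with TMM scaling, this held only with control animal 66 counted. Without that scaling heated CTS animal 13 lay below every CTS control in muscle.

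**Figure D2:**
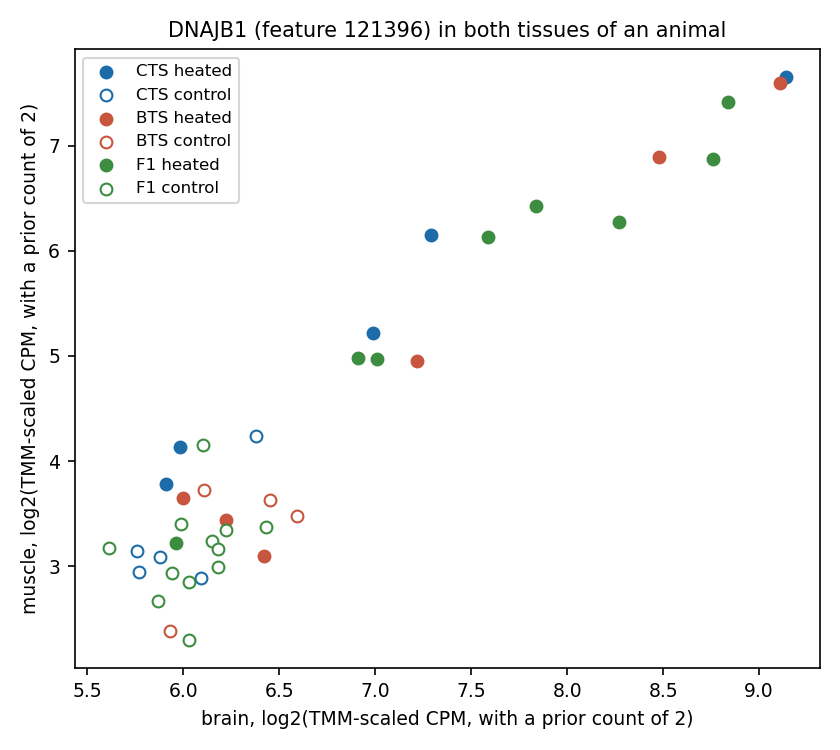
DNAJB1 in brain (x axis) and muscle (y axis) of the same animal, both as log2 of TMM-scaled CPM with a prior count of 2; filled points are heated animals and open points controls, without animals 11, 16 and 64. Heated animals of all 3 genotypes run from the level of the controls up to the top right along one line (r = 0.96, n = 19).

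The second DNAJB1 feature, AMEXTC_0340000062968, drew few reads and lay outside the level limit. Its fitted log2 fold change after heat was 1.78 in muscle (SE 0.59, adjusted p = 0.165) and 1.22 in brain (SE 0.38, adjusted p = 0.371) in edgeR, neither passing the test. In muscle its highest values in heated animals were 1.17 CPM in CTS, 2.33 in BTS and 18.5 in F1, the last from the shallow library of animal 11, against 0.132 CPM in CTS controls, 0.764 in BTS controls and 0.566 in F1 controls. It was not measured apart from DNAJB1, since how the counting treated reads that match both was not given in the sources used here.

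**Figure D3:**
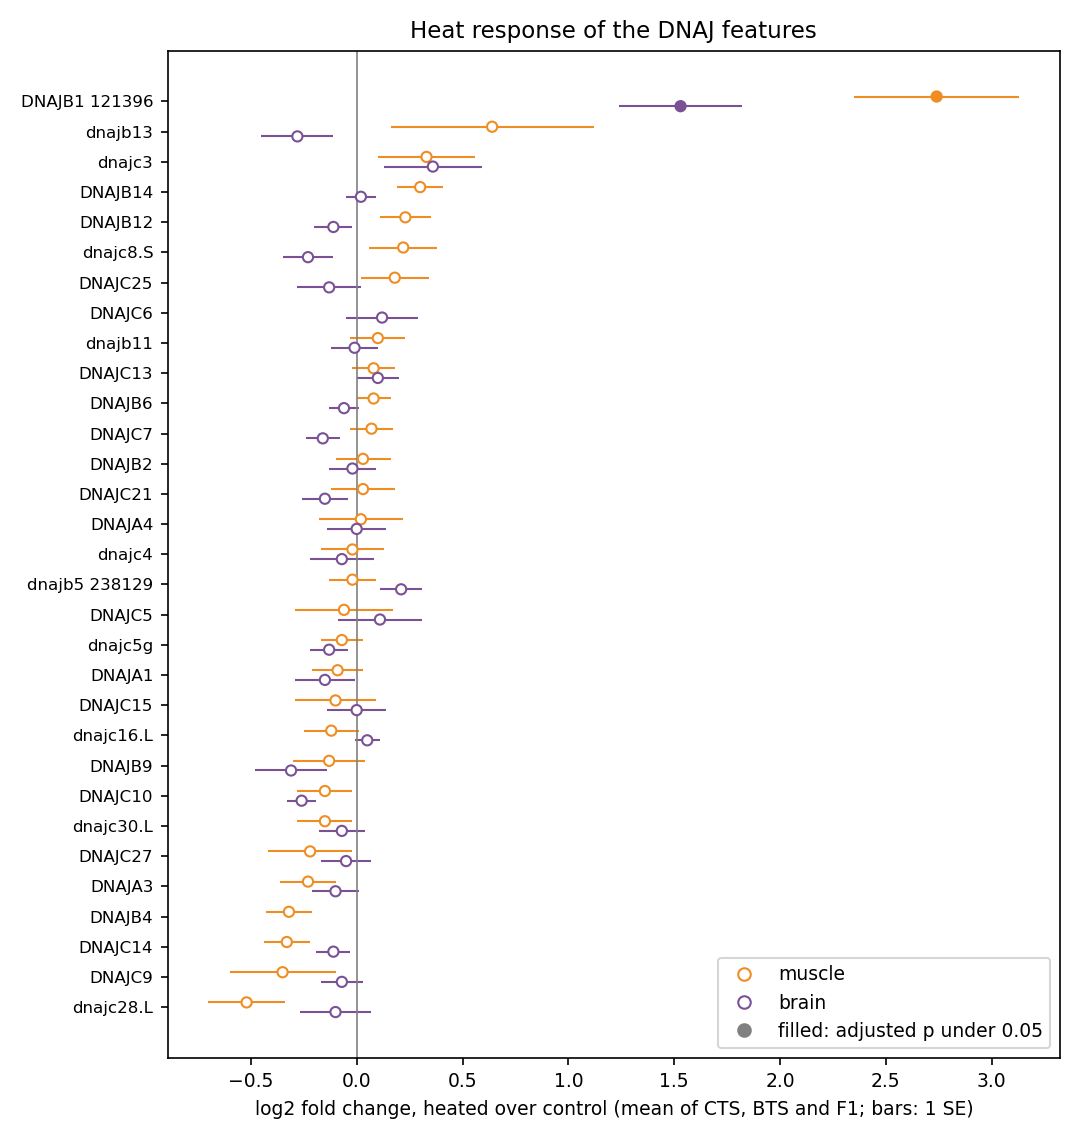
Log2 fold change of each kept DNAJ feature in heated over control animals, mean of CTS, BTS and F1, with bars of 1 SE; orange is muscle, purple brain, and filled points passed an adjusted p of 0.05. DNAJB1 at 2.74 in muscle and 1.53 in brain stands alone, and the rest lie between -0.52 and 0.64.

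Among the other cytosolic members, none of 7 in muscle and none of 6 in brain passed the test. DNAJA1, the major type A partner of cytosolic HSP70, had a log2 fold change of -0.09 in muscle (SE 0.12) and -0.15 in brain (SE 0.14). DNAJB6, which keeps aggregation-prone proteins soluble, had 0.08 in muscle (SE 0.08) and -0.06 in brain (SE 0.07). DNAJB4, a close relative of DNAJB1, was kept in muscle only and leaned the other way, at -0.32 (SE 0.11, unadjusted p = 0.00776, adjusted p = 0.205, edgeR). It stood at 9.9, 11.0, 12.5, 13.7 and 20.8 CPM in heated CTS, against 14.5, 14.5, 14.9, 18.2 and 21.3 CPM in control CTS. Its median was 16.3 CPM in heated BTS and 18.8 CPM in control BTS, and 14.4 CPM in heated F1 and 18.0 CPM in control F1, with overlap in all 3 genotypes. dnajb5 had -0.02 in muscle (SE 0.11) and 0.21 in brain (SE 0.10, adjusted p = 0.778). dnajb13, a gene of cilia and sperm tails in mammals, had 0.64 in muscle, with a wide error (SE 0.48), and -0.28 in brain (SE 0.17).

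None of the 8 ER members passed the test in either tissue. In the ER, J-domain proteins bring clients to the HSP70 protein BiP and several are induced when misfolded proteins gather there. DNAJB9, an inducible ER member, had a log2 fold change of -0.13 in muscle (SE 0.17) and -0.31 in brain (SE 0.17, adjusted p = 0.798). dnajc3, an ER member also known as p58IPK, had 0.33 in muscle (SE 0.23) and 0.36 in brain (SE 0.23, adjusted p = 0.86). DNAJC10, an ER disulfide reductase, had the smallest unadjusted p of the brain members after DNAJB1 at -0.26 (SE 0.07, unadjusted p = 0.000854, adjusted p = 0.255). DNAJB14, anchored in the ER membrane, had 0.30 in muscle (SE 0.11, adjusted p = 0.233): in heated CTS it stood at 6.42 to 7.26 CPM, against 4.52 to 6.47 CPM in control CTS, in heated BTS at 6.19 to 9.08 CPM, against 3.76 to 6.33 CPM in control BTS, and in heated F1 at a median of 6.14 CPM, against 6.32 CPM in control F1. Its relative DNAJB12 had 0.23 in muscle (SE 0.12, adjusted p = 0.457) and -0.11 in brain (SE 0.09).

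None of the 5 mitochondrial members passed the test in either tissue. Their fitted means over genotypes were all at or below 0, where 48.2% of all muscle features and 48.3% of all brain features lay above 0. The genotypes did not share this side: within F1 muscle all 5 were at or above 0 (median 0.11), and in brain 2 of 5 were above 0 in F1 and 2 of 5 in CTS. dnajc28.L had the lowest value of all members in muscle, -0.52 (SE 0.18, unadjusted p = 0.00486, adjusted p = 0.167, edgeR). Its levels were 0.53, 0.995, 1.51, 1.80 and 2.70 CPM in heated CTS, against 1.99, 2.18, 2.90, 3.09 and 3.53 CPM in control CTS. In F1, the largest group, the log2 fold change was 0.00 (SE 0.22), with a median of 2.41 CPM in heated animals and 2.67 CPM in controls. DNAJA3, the type A partner of mitochondrial HSP70, had -0.23 in muscle (SE 0.13, adjusted p = 0.532) and -0.10 in brain (SE 0.11). The median over the 5 was -0.15 in muscle and -0.07 in brain, and the median of all features tested was close to 0 in both tissues.

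The vesicle, nuclear and remaining members likewise held no call by edgeR. DNAJC5, the cysteine string protein of synaptic vesicles, had -0.06 in muscle (SE 0.23) and 0.11 in brain (SE 0.20). DNAJC6 (auxilin), which uncoats clathrin vesicles in neurons, had 0.12 in brain (SE 0.17). dnajc8.S, a splicing-associated member, had 0.22 in muscle (SE 0.16) and -0.23 in brain (SE 0.12, adjusted p = 0.779), and DNAJC9, a histone chaperone, had -0.35 in muscle (SE 0.25). The DNAJC9 value came mainly from F1, at -0.94 (SE 0.32, adjusted p = 0.27, edgeR), against 0.02 in CTS and -0.13 in BTS. Its F1 controls reached 20.6 CPM with a median of 3.89 CPM, against a median of 3.56 CPM in heated F1. DNAJC7, which binds both HSP70 and HSP90, had 0.07 in muscle (SE 0.10) and -0.16 in brain (SE 0.08, adjusted p = 0.778). DNAJC14, which in mammals acts in the export of receptors from the ER, had -0.33 in muscle (SE 0.11, adjusted p = 0.17 by edgeR), and DESeq2 called it lower (-0.34, adjusted p = 0.0434). In F1 muscle it had a lowest value of 21.0, a median of 56.1 and a highest of 78.3 CPM in the heated animals, against 66.0, 71.9 and 92.6 CPM in the controls. In BTS it had a log2 fold change of 0.01 (SE 0.21), with a median of 83.4 CPM in heated animals and 84.1 CPM in controls, and in CTS -0.51 (SE 0.23, adjusted p = 0.256, edgeR).

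The flat members were measured closely enough to bound their mean responses. The approximate 95% interval lay within 2-fold up or down for 28 of 30 members in muscle, all but DNAJB1 and dnajb13, and for 29 of 30 in brain, all but DNAJB1. For a few of these members the SE behind the interval is smaller than the p of the test implies. Beside DNAJB1, 4 muscle members and 1 brain member had an unadjusted p under 0.05 by edgeR. Over all features, 1418 of 12554 in muscle and 994 of 15496 in brain had such a p, and the member counts were not tested against these. DNAJC21, which acts in the maturation of the large ribosomal subunit, was the single member whose heated and control values did not overlap within a genotype: in BTS brain all 6 heated animals (lowest 41.2, median 45.3, highest 52.9 CPM) lay below the controls (54.2, 60.3, 62.9, 65.9 and 67.7 CPM). The edgeR test gave a log2 fold change of -0.47 there (SE 0.22, adjusted p = 0.857), so that gap was no call, and the test called 0% of all features for heat in BTS brain. In each of the other 5 combinations of tissue and genotype, 0 of 30 members had heated and control values apart. How many of all features had values apart was not counted, so these counts are no result about the members.

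The partners of the DNAJ proteins were also without a call. A list of HSP70 proteins, exchange factors, J proteins under other names and heat shock factors had 37 names, of which 26 matched a feature; HSPA1A, HSPA1B and HSPA8 were not analysed here. None of 24 features tested in muscle and none of 26 in brain passed the edgeR test for the mean heat response. Their log2 fold changes ran from -0.24 to 0.44 in muscle (median -0.02) and from -0.41 to 0.21 in brain (median -0.07). The highest in muscle was hspa5, the ER HSP70 BiP, at 0.44 (SE 0.17, adjusted p = 0.266), and the lowest in brain was one of 2 HSPA9 features, the mitochondrial HSP70, at -0.41 (SE 0.15, adjusted p = 0.533). BAG3, a co-chaperone of HSP70 that is heat-inducible in mammals, had 0.04 in muscle (SE 0.11) and 0.21 in brain (SE 0.09, adjusted p = 0.671).

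Some members differed between the genotypes without heat, at about the share of all features. In control muscle, 8 of the 30 members differed between BTS and CTS, all higher in BTS by edgeR with TMM scaling, where the test called 28.8% of all features, 13.3% as higher and 15.5% as lower. With RLE scaling 4 members were higher and 1 lower, and with DESeq2 5 higher and 1 lower; the lower one was DNAJC10 (log2 fold change -0.76, adjusted p = 0.0375 with RLE, and -0.75, adjusted p = 0.0232 with DESeq2). DNAJC15 led by far, at about 16 times the CTS level. In control brain, 6 of 30 members differed, 4 higher and 2 lower in BTS, where 19.1% of all features were called, 10.1% as higher and 8.96% as lower. The total counts, 26.7% of members in muscle and 20.0% in brain, lie near the shares of all features. The split by direction in muscle, 8 higher and 0 lower, does not, but it changed with the scaling and was not tested. These counts are no result about the family as a whole. Whether the reference fits reads of both species alike was not given in the sources used here, and that cannot be told apart from expression for a gene that differs in both tissues.

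DNAJC15, a protein of the mitochondrial inner membrane that in mammals takes part in protein import and restrains respiration, was nearly silent in CTS muscle. Its levels were 9.5, 9.72, 13.3, 17.8 and 21.8 CPM in BTS controls, against 0.422, 0.66, 0.819, 0.882 and 1.36 CPM in CTS controls. The CTS values rest on 5 to 15 reads a library. F1 controls had a lowest value of 3.93, a median of 8.12 and a highest of 13.4 CPM, above every CTS animal and overlapping BTS. The log2 fold change in muscle was 4.03 for BTS over CTS (SE 0.39, adjusted p = 1.50e-10), 3.36 for F1 over CTS (SE 0.36, adjusted p = 4.82e-09) and -0.67 for F1 over BTS (SE 0.27, adjusted p = 0.101), all by edgeR. Heated animals, which these tests did not use as a contrast, showed the same order, with 8.32 to 17.7 CPM in BTS and 0.201 to 0.787 CPM in CTS.

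In brain DNAJC15 showed no such gap. Its levels were 7.72 to 11.8 CPM in BTS controls and 5.26 to 11.4 CPM in CTS controls, with a log2 fold change of 0.06 for BTS over CTS (approximate 95% interval -0.49 to 0.61). The feature was thus counted in CTS brain at a level like that in BTS brain. The species difference in muscle minus that in brain was 4.01 (SE 0.46, adjusted p = 4.10e-10, edgeR fit of both tissues) and that of F1 over CTS was 2.86 (SE 0.39, adjusted p = 2.11e-07). Both were called in all 34 alternatives, and these 2 contrasts, added after the data were seen, called 14.2% and 7.04% of all features.

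**Figure D4:**
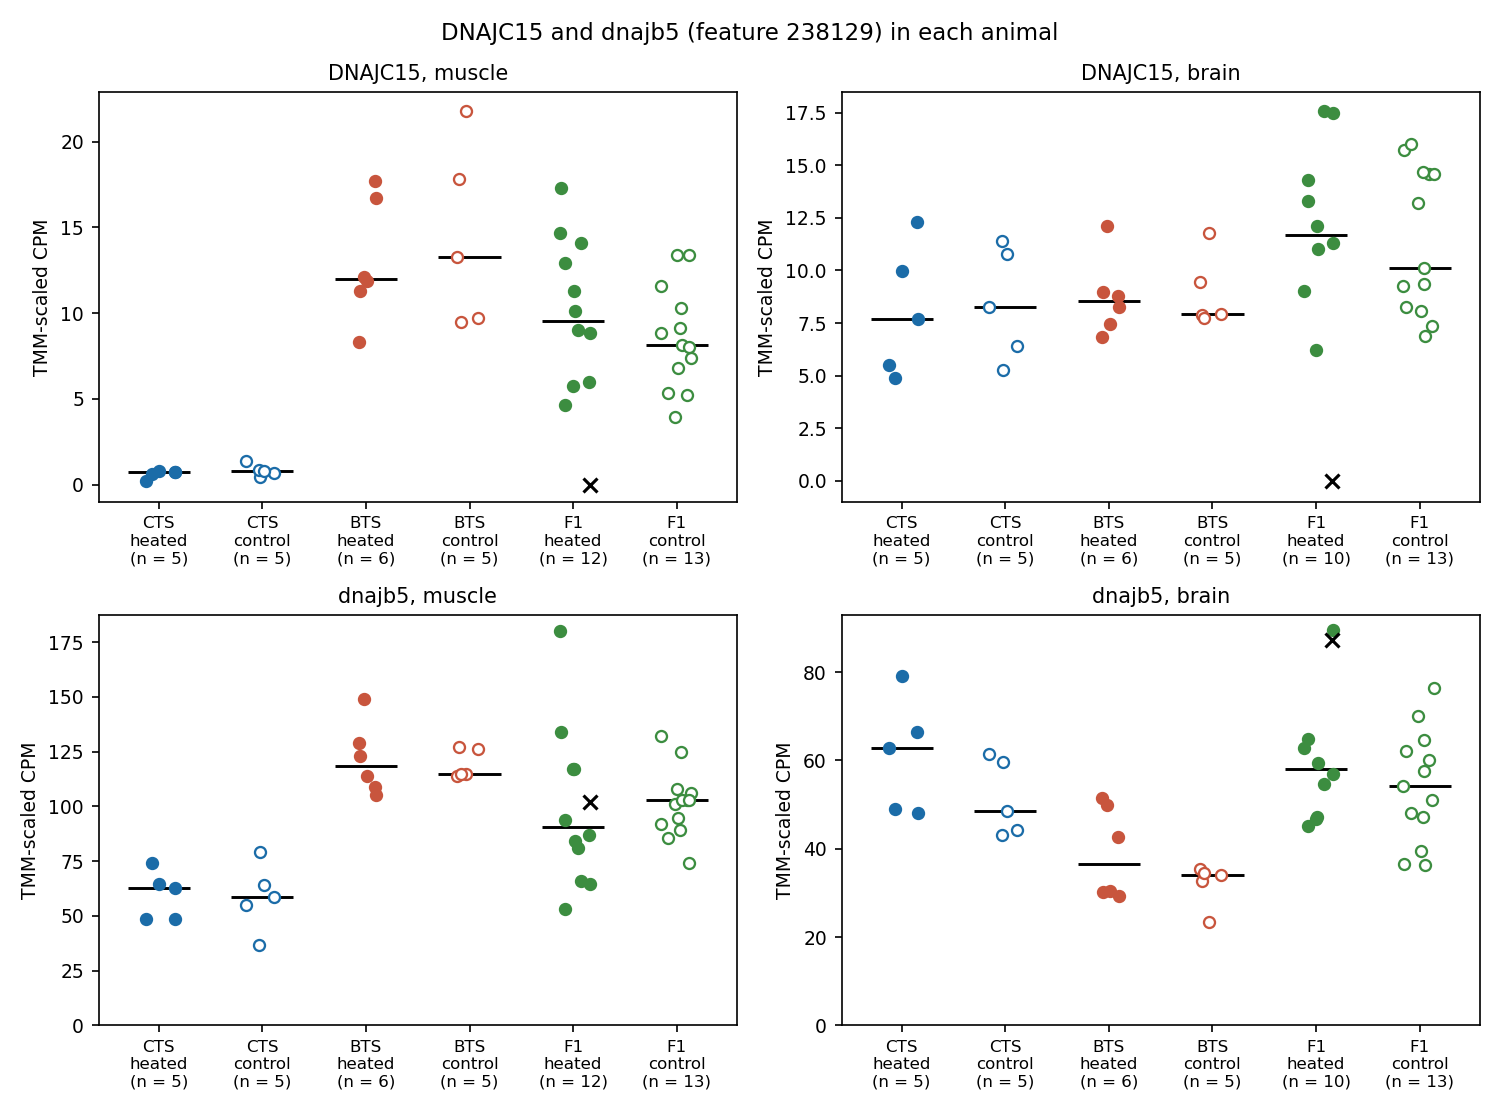
TMM-scaled CPM of DNAJC15 (top) and dnajb5 (bottom) in each animal, muscle left and brain right; filled points are heated animals, open points controls, bars group medians and crosses the 2 shallow libraries. DNAJC15 lies at or below 1.36 CPM in every CTS muscle and at 4.91 CPM or more in every CTS brain; dnajb5 is higher in BTS than in CTS in muscle and lower in brain.

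dnajb5, a relative of DNAJB1 that in mammals binds HDAC4 in heart muscle, differed between the species in opposite directions in the tissues. In muscle it stood at 114, 115, 115, 126 and 127 CPM in BTS controls, against 36.7, 54.8, 58.4, 64.1 and 79.1 CPM in CTS controls (log2 fold change 0.92, SE 0.22, adjusted p = 0.00113, edgeR). In brain it stood at 23.3, 32.6, 34.0, 34.4 and 35.5 CPM in BTS controls, against 43.0, 44.3, 48.5, 59.7 and 61.4 CPM in CTS controls (-0.72, SE 0.20, adjusted p = 0.00968). The groups did not overlap in either tissue. The species difference in muscle minus that in brain was 1.66 (SE 0.31, adjusted p = 4.68e-05). F1 controls were on the higher side in each tissue: in muscle they had a median of 103 CPM, above CTS (0.76, SE 0.18, adjusted p = 0.00371, but 0.1 with the muscle libraries of controls 25, 63, 66 and 68 left out), and in brain a median of 54.2 CPM, above BTS (0.78, SE 0.18, adjusted p = 0.00465).

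DNAJC21 and DNAJA1 were also higher in BTS muscle. DNAJC21 stood at 98.1, 102, 122, 156 and 177 CPM in BTS controls, against 36.6, 36.9, 52.7, 56.1 and 58.1 CPM in CTS controls (log2 fold change 1.54, SE 0.31, adjusted p = 0.000197, edgeR). F1 controls had a lowest value of 55.0, a median of 75.9 and a highest of 105 CPM, lower than BTS (-0.89, SE 0.25, adjusted p = 0.0173, but 0.0843 without BTS control 60 and 0.0535 without BTS control 68). In brain the species difference of DNAJC21 was 0.32 (SE 0.23, adjusted p = 0.348). DNAJA1 in muscle stood at 116, 136, 188, 193 and 224 CPM in BTS controls, against 69.0, 73.7, 76.4, 83.8 and 86.6 CPM in CTS controls (1.13, SE 0.23, adjusted p = 0.000252). The values of the species did not overlap for DNAJC21, DNAJA1, DNAJC15 or dnajb5 in muscle. Nor did they for DNAJC7, higher in BTS, or for DNAJC10, lower in BTS. DNAJC10 stood at 3.03 to 4.49 CPM in BTS controls, against 4.88 to 6.87 CPM in CTS controls, and was not called by edgeR (adjusted p = 0.0754). How many of all features lay apart between the species was not counted, in muscle or in brain.

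DNAJA1 was higher in BTS in brain as well. It stood at 288, 360, 421, 440 and 447 CPM in BTS controls, against 177, 179, 180, 278 and 331 CPM in CTS controls (log2 fold change 0.81, SE 0.28, adjusted p = 0.036, edgeR). That call was lost on leaving out any of 6 control animals (BTS 60, 68 and 71, CTS 57, 66 and 83), with adjusted p up to 0.0899. The species difference of DNAJA1 in muscle minus that in brain was 0.31 (SE 0.33, adjusted p = 0.611).

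The other 4 species calls in muscle depended on single animals. They were DNAJC27, a vesicle-bound Rab-like member (log2 fold change 1.08, SE 0.39, adjusted p = 0.0351), DNAJB9 (0.90, SE 0.34, adjusted p = 0.0426), DNAJC14 (0.59, SE 0.22, adjusted p = 0.0429) and DNAJC7 (0.58, SE 0.21, adjusted p = 0.0309), all by edgeR. DNAJC27 stood at 2.52, 6.97, 17.2, 17.7 and 20.0 CPM in BTS controls, against 3.57, 4.08, 4.94, 8.49 and 9.28 CPM in CTS controls, so that the groups overlapped. They also overlapped for DNAJB9 and DNAJC14, but not for DNAJC7 (94.3 to 137 CPM in BTS controls, 77.0 to 85.1 CPM in CTS controls). Each of the 4 lost its call with RLE scaling and on leaving out each of at least 5 control animals, among them CTS 57 and 63 and BTS 60 and 68. Adjusted p then reached 0.134 for DNAJC27, 0.170 for DNAJB9, 0.133 for DNAJC14 and 0.0956 for DNAJC7 with single animals left out or RLE scaling.

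In brain, 3 further members were higher in BTS controls and 1 was lower, each called in every alternative tried unless given. dnajc30.L, a mitochondrial member, stood at 13.1, 14.7, 15.9, 17.2 and 19.9 CPM in BTS controls, against 8.36, 8.69, 8.77, 8.86 and 9.41 CPM in CTS controls (log2 fold change 0.94, SE 0.23, adjusted p = 0.0021, edgeR). DNAJB2, a neuronal member that sorts proteins for the proteasome, stood at 32.1, 44.9, 47.5, 50.9 and 58.2 CPM in BTS controls, against 21.2, 24.1, 29.0, 31.7 and 31.8 CPM in CTS controls (0.76, SE 0.22, adjusted p = 0.0106). dnajc3 stood at 2.21, 2.26, 3.83, 5.18 and 5.38 CPM in BTS controls, against 0.474, 1.05, 1.08, 1.30 and 2.43 CPM in CTS controls (1.63, SE 0.46, adjusted p = 0.00884). The values of the species overlapped for dnajc3 and not for dnajc30.L or DNAJB2.

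The member lower in BTS brain, beside dnajb5, was dnajc4, a mitochondrial member. It stood at 2.37, 2.87, 3.05, 3.81 and 4.74 CPM in BTS controls, against 5.12, 6.66, 8.33, 10.1 and 10.2 CPM in CTS controls (log2 fold change -1.21, SE 0.30, adjusted p = 0.00351, edgeR). The groups did not overlap. F1 controls had a lowest value of 4.05, a median of 5.97 and a highest of 9.75 CPM, between the parents' medians.

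**Figure D5:**
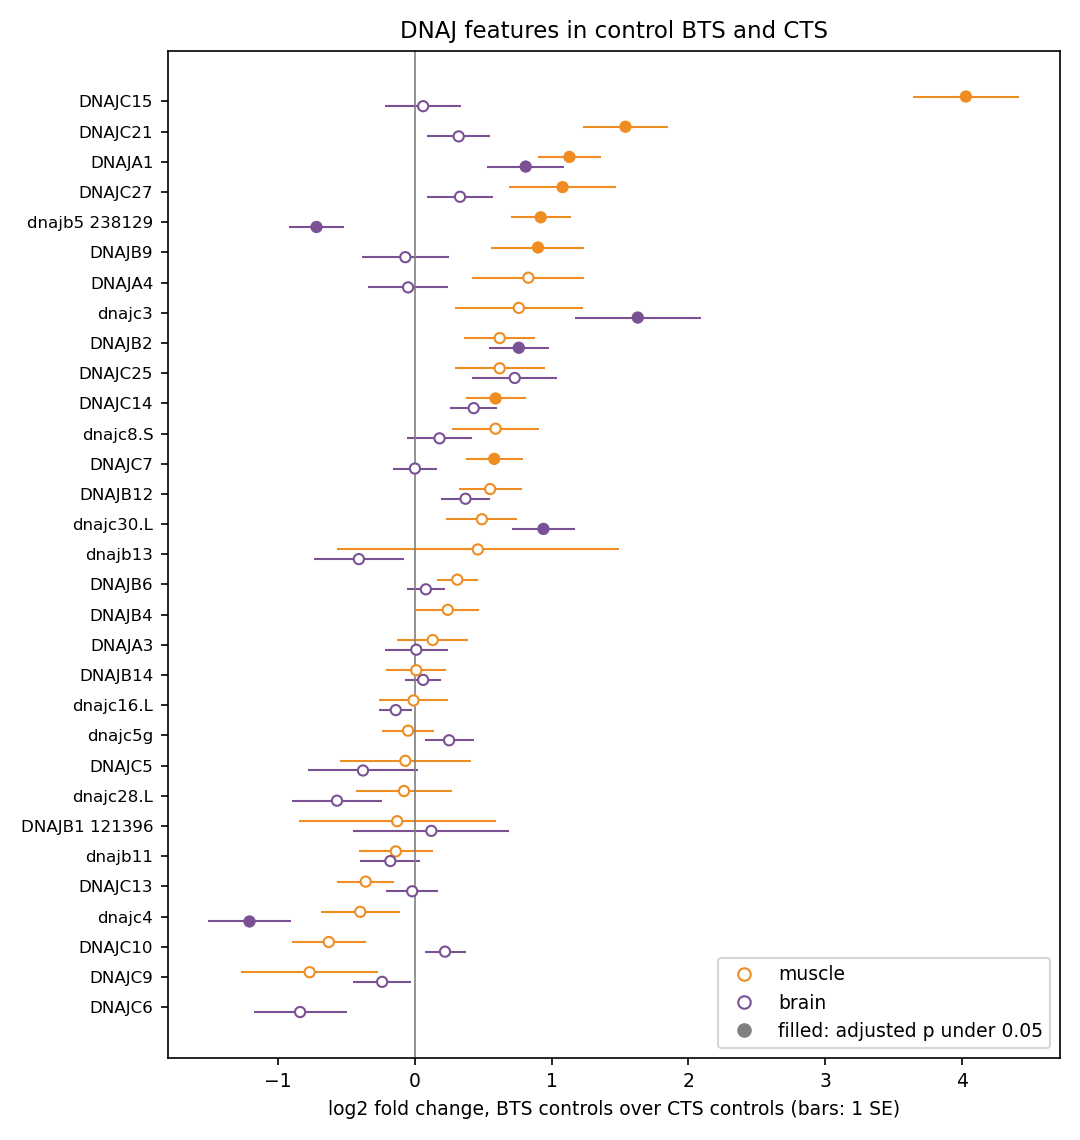
Log2 fold change of each kept DNAJ feature in BTS controls over CTS controls, with bars of 1 SE; orange is muscle, purple brain, and filled points passed an adjusted p of 0.05. The 8 muscle calls lie right of 0, with DNAJC15 at 4.03, while 4 brain calls lie right of 0 and 2 left of it.

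No member was called outside both parents in F1 controls, in either tissue: by edgeR, none differed from both in the same direction. In muscle dnajb13, on few reads, was fitted above both. Over CTS its log2 fold change was 2.44 (SE 0.84, adjusted p = 0.0523 by edgeR and 0.0166 by DESeq2). Over BTS it was 1.97 (SE 0.82, adjusted p = 0.123, edgeR). Its median was 1.55 CPM in F1 controls, 0.271 CPM in CTS controls and 0.367 CPM in BTS controls. DNAJC9 in muscle was also fitted above CTS (1.01, SE 0.41, adjusted p = 0.105, edgeR). Of the members that differed between the parents, the fitted F1 value lay between them for 7 of 8 in muscle, all but DNAJB9, and for 5 of 6 in brain, all but dnajb5. Picking members by a difference between the parents by itself favours an F1 value between them. The share over all such features was not counted, so these counts are no result about the members. In muscle, 2 of 30 members differed between F1 and CTS (DNAJC15 and dnajb5, where 11.3% of all features were called), and 5 of 30 between F1 and BTS (9.53%). In brain, none of 30 differed between F1 and CTS by edgeR (6.35% of all features), with dnajc30.L the nearest at 0.57 (SE 0.19, adjusted p = 0.063, and 0.0142 by DESeq2). Between F1 and BTS in brain 2 of 30 differed (6.3%): dnajb5, and DNAJB2 at -0.60 (SE 0.18, adjusted p = 0.0325, but 0.0574 without animal 64 and up to 0.148 without single BTS controls). Just over the limit there lay DNAJA1 at -0.70 (SE 0.23, adjusted p = 0.0521, edgeR) and dnajc4 at 0.82 (SE 0.26, adjusted p = 0.0525, edgeR). DESeq2 called both, with adjusted p = 0.0136 for DNAJA1 and 0.00802 for dnajc4. It also called dnajb13 higher in F1 than in BTS brain (0.76, adjusted p = 0.0456), where edgeR gave 0.67 (SE 0.28, adjusted p = 0.155).

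DNAJC9, a histone chaperone tied to DNA replication, was the one muscle member that edgeR called higher in F1 than in BTS controls. F1 controls had a lowest value of 2.56, a median of 3.89 and a highest of 20.6 CPM, against 1.47, 1.67, 1.91, 2.19 and 2.93 CPM in BTS controls. F1 animals 3, 23 and 8 stood at 20.6, 18.1 and 14.3 CPM, and the other 10 at or below 4.8 CPM. The log2 fold change was 1.78 (SE 0.46, adjusted p = 0.00908, edgeR), and 0.90 without those 3 animals (adjusted p = 0.0281), a step added after the data were seen. Without them DNAJC9 was also called lower in BTS than in CTS controls (-0.84, adjusted p = 0.0281), against -0.77 (adjusted p = 0.259) with all animals. The muscle library of animal 3 also held the most of the 3 immune marker features, 272 CPM against at most 134 CPM in other deep muscle libraries, and whether that bears on DNAJC9 was not tested. The members lower in F1 than in BTS muscle, beside DNAJC21, were DNAJB9 (-1.04, SE 0.28, adjusted p = 0.0129), DNAJB2 (-0.75, SE 0.21, adjusted p = 0.0173) and DNAJA1 (-0.68, SE 0.19, adjusted p = 0.0159). All 3 lost their call without BTS control 60, with adjusted p of 0.0632, 0.0827 and 0.117 in that order, and with the muscle libraries of controls 25, 63, 66 and 68 left out. DNAJB9 also lost it without BTS control 68 (0.079), and DNAJB2 and DNAJA1 without BTS control 71 (0.213 and 0.0588).

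Most members were kept in both tissues, 29 of 31, and their levels differed between muscle and brain. In controls, 27 of 31 members differed between the tissues by edgeR, where 87.3% of all features did, so the count itself says little about the family. The median of all features was -1.37 on the log2 scale (muscle over brain) and ran from -2.04 to -0.19 over the alternatives, with other scalings at the low end and other filters or libraries left out at the high end, so each member is given relative to that median, with no test. Of the 29 members kept in both tissues, 19 were higher in muscle relative to it and 10 lower, and the sides held in every alternative tried. The median is taken over all features of that fit, including features expressed mainly in 1 tissue. Keeping members in both tissues can by itself shift them relative to it, so this split is no result about the family. Highest among the 29 were dnajc4 at 4.41, DNAJC25 at 3.51 and dnajb5 at 3.40. DNAJB4 was kept through muscle alone, so its side was fixed by that choice: it lay 7.58 above the median feature (7.41 to 7.78 over the alternatives), with a lowest value of 13.6, a median of 18.0 and a highest of 32.8 CPM in 23 muscle controls, against 0, 0.439 and 1.73 CPM in 23 brain controls.

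DNAJC6 was kept through brain alone, so its side was likewise fixed by that choice: it lay 6.39 below the median feature, with a lowest value of 0, a median of 0.243 and a highest of 6.00 CPM in muscle controls, against 84.0, 196 and 411 CPM in brain controls. DNAJC5, kept in both tissues and lowest in muscle among the 29, lay 3.68 below it, with a lowest value of 3.98, a median of 8.73 and a highest of 29.5 CPM in muscle controls, against 129, 744 and 1090 CPM in brain controls. Another vesicle member, DNAJC27, lay 1.15 above the median feature. The highest muscle value of DNAJC5 and of DNAJC6 came from control CTS animal 66, the muscle library with the most brain markers (205 CPM). DNAJB1 was also lower in muscle, by 0.52 relative to the median feature (fitted log2 fold change -1.88), with a median of 8.84 CPM in muscle controls, against 68.4 CPM in brain controls. The CPM values of all these members were scaled within each tissue. They are therefore not on the scale of the fit of both tissues, and the 2 measures differ in size and, for some members, in direction. DNAJC27 had a median of 8.70 CPM in muscle controls, against 22.3 CPM in brain controls. DNAJB6, 1.64 above the median feature, had 137 CPM in muscle controls, against 229 CPM in brain controls. Levels in whole tissue do not tell fewer cells of a type from less RNA per cell.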

How the data were processed

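The files the authors deposited hold raw counts of reads for each gene model, obtained with Trimmomatic, FastQC, STAR and HTSeq, per the submitters' processing notes; versions, counting options and reference build were not given in the sources used here. RNA was sequenced as single reads from stranded poly(A) libraries, per the labels' protocols. All libraries of CTS, BTS and F1 in a tissue entered one fit with edgeR 4.0.16 (R 4.3.3): TMM scaling, filterByExpr, group and sex, quasi-likelihood test, Benjamini-Hochberg adjustment over all features, threshold 0.05, two-sided. SEs were derived from log2 fold changes and F values, and intervals are 1.96 SE. For a few members the SE is smaller than the p of the same test implies. An example is DNAJC7 for heat in F1 muscle (0.12, SE 0.13, unadjusted p = 0.851, edgeR), and such intervals may be too narrow. A fit of both tissues gave the contrasts between them. Alternatives included DESeq2 1.42.0, RLE scaling, other filters, no sex term, and leaving out libraries. The procedure was tested on simulated data, in which a changed feature had the same expected change in every heated animal of all genotypes. That test therefore does not cover a response that varies between animals, as that of DNAJB1 did. Members, lists and named genes (every called member, the 2 smallest p per role group and the largest responses) were chosen with earlier results of these data known.

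The animal numbers in the titles pair the tissues: 42 animals gave both under the same tags, and their residuals around group means correlated between tissues with a mean r of 0.158 for the same animal and -0.0029 for different animals (25 of 42 pairs over 0.1). For F1 animal 17 the brain was not analysed here.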

Additional observations from a re-analysis of the deposited data

Results flagged for a closer look

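Of 79 groups of 4 to 10 libraries checked for members with a call, 9 held a library far from the rest, where chance gives about 1 in 20, or 3.95. DNAJB1 reached 562 CPM in the brain of heated CTS animal 7 (next 156 CPM) and 18.7 CPM in the muscle of control CTS animal 66 (next 8.66 CPM). The shallow brain library of heated F1 animal 16 held DNAJB2 and dnajc30.L at 0 CPM. dnajb5 was low in the brain of control BTS animal 68, at 23.3 CPM (next 32.6 CPM), and dnajc3 was high in the brain of heated F1 animal 2, at 9.84 CPM (next 3.77 CPM). In the muscle of heated CTS animal 13, DNAJB9 was high at 5.43 CPM and DNAJC15 low at 0.201 CPM. DNAJC27 reached 20.1 CPM in the muscle of heated BTS animal 75 (next 10.7 CPM).

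The difference between genotypes in controls differed between muscle and brain for 5 members in BTS over CTS and for 2 in F1 over CTS, by edgeR contrasts added after the data were seen. For BTS over CTS, muscle minus brain, the log2 values were 4.01 for DNAJC15, 1.66 for dnajb5, 1.09 for DNAJC21 (adjusted p = 0.0298), -0.88 for DNAJC10 (adjusted p = 0.043) and -2.31 for DNAJB4 (adjusted p = 0.0053), whose brain levels were under 2 CPM in every control. For F1 over CTS they were 2.86 for DNAJC15 and -2.11 for DNAJC6 (adjusted p = 0.0207). The DNAJC6 value rests on muscle control 66, with 6.00 CPM: without that animal the adjusted p was 0.685. With the animal as a block, the call of DNAJC6 was lost (adjusted p = 0.123), as was that of DNAJC10 (adjusted p = 0.0513).

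The backcrosses entered no comparison. DNAJB1 in the heated BTSbc animals 12 and 30 stood at 44.7 and 43.5 CPM in muscle, against 7.83 CPM in the BTSbc control, and at 154 and 192 CPM in brain, against 98.8 CPM in the control. The heated CTSbc animal had 5.63 CPM in muscle and 68.9 CPM in brain. Titles and tags differ in genotype for all 4 of these animals.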

How the results depend on the processing

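The mean DNAJB1 response kept its direction and call in muscle under all 31 alternatives; in brain the count of 1 became 0 without the brain library of animal 7 (0 to 1 with single animals left out). DESeq2 called 2 members in muscle for the mean response and 1 each within CTS and within BTS. In F1 brain the count of 0 became 1 with DESeq2, without animal 64 and without the brain library of animal 7 (0 to 1 with single animals left out). BTS over CTS in muscle (8) became 5 with RLE scaling (4 higher, 1 lower) and 5 with the muscle libraries of controls 25, 63, 66 and 68 left out, and F1 over BTS there (5) became 1 and F1 over CTS (2) became 1 without those controls; single animals left out gave 4 to 10 and 2 to 5 for the first pair. F1 over BTS in brain (2) became 5 with DESeq2, and 4 with the strict filter, without the shallow libraries, without animal 76 and without the brain library of animal 7 (1 to 4 with single animals left out). F1 over CTS in brain (0) became 1 with DESeq2, RLE scaling, the strict filter, and without animal 64, animal 76 or the brain library of animal 7 (0 to 1 with single animals left out). The difference between tissues of BTS over CTS (5) became 3 with RLE scaling and without the 4 muscle controls, and that of F1 over CTS (2) became 1 without them; single animals left out gave 3 to 6 and 1 to 2. The cause of these shifts was not tested. No sign turned round among these results, with levels between tissues taken relative to the median feature. With the animal as a block, 0 of 31 members differed in heat response between tissues and 26 differed in level; apart from DNAJC6 and DNAJC10 it changed no call named here. RLE scaling moved the median of all features by over 0.1 for BTS over CTS, to -0.15 in muscle and -0.13 in brain. Lowering the mean CPM limit to 0.5 kept 31 members in muscle and 32 in brain; raising it to 5 kept 23 and 26. Members under about 2 CPM, such as dnajc3 and dnajb13 in muscle, rest on few reads.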
